A study of Mus musculus with 8 samples.

Results

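The transcripts of 8 cell surface adhesion molecules were followed in mouse hepatoma cells: Vcam1, Icam1, Icam2, Alcam, Mcam, F11r, Cd44 and Cd47. They were taken by name from a table of TPM values (transcript levels scaled by length and library size). Read counts were taken by Ensembl identifier from a second table, as 8 of 54446 listed genes. All 8 are reported whatever their values, but they were chosen with earlier results of these data known. Shares of the 8 beside shares of all genes are therefore a description. Hepa1-6 is a mouse hepatoma line, labelled as C57BL/6, and was kept in DMEM with 10% fetal bovine serum. Bulk mRNA was sequenced in 4 groups of 2 libraries: cells with no treatment (control), cells given 50 µM trimethylamine N-oxide (TMAO), cells given 50 ng/ml TNF-α, and cells given TMAO and TNF-α at those doses (combined). Each treatment lasted 24 h. For the combined group the treatment field gives TMAO at both doses, but the titles and the protocol give TNF-α as the second agent, and it was read so. Within a group the libraries are numbered 14 and 16. Nothing in the labels states that these are separate cultures, so the p-values reflect the spread of 2 libraries that may be technical repeats.

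Leukocytes leave the blood and attach to other cells through pairs of surface proteins. Vcam1, Icam1 and Icam2 are immunoglobulin-type ligands of leukocyte integrins, and TNF-α is known to switch on Vcam1 and Icam1 through the transcription factor NF-κB. Alcam binds the T cell protein Cd6, Mcam is an adhesion molecule of vessel walls and tumour cells, F11r (JAM-A) sits at tight junctions, Cd44 is the main hyaluronan receptor, and Cd47 tells phagocytes through Sirpa not to engulf the cell.

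The total was 24736746 to 30488605 counts per library, so that 3 counts correspond to 0.0984 to 0.121 CPM (counts scaled to library size). TNF-α library 16 stood apart, with a median correlation across genes of 0.967 with the other libraries, where the other 7 had 0.981 to 0.983. In it 72 genes of ribosomal proteins averaged 9.28 in log2 CPM, against 8.74 in control library 14 and 8.45 to 8.54 in the other 6. Results that rest on TNF-α library 16 are therefore also given without it; the remaining TNF-α library is then assumed to vary like the other groups. The cells carried hepatocyte-type transcripts (Alb at 353 to 1223 CPM and Hnf4a at 110 to 212 CPM), with 6 or 7 of 10 hepatocyte markers at 1 CPM or more, while Ttr and Apoa1 stayed at or below 0.168 and 0.337 CPM. The summed hepatocyte markers were 3058 to 3300 CPM without TNF-α and 1364 to 1445 CPM with it. Of 10 endothelial markers 0 or 1 reached 1 CPM in a group, with summed levels of 1.96 to 2.57 CPM without TNF-α and 2.84 to 3.59 CPM with it, and Lyve1 was at 0 counts. Of 12 leukocyte markers Csf1r and Cd68 reached 1 CPM, the pan-leukocyte gene Ptprc stayed at 0.0404 to 0.303 CPM and Cd3e at 0 counts, and the sum was 12.9 to 17.9 CPM. Of 10 fibroblast and stellate cell markers 2 or 3 did, with sums of 1653 to 1819 CPM without and 1322 to 1446 CPM with TNF-α, nearly all from Dcn, and Col3a1 was at 0 counts. In bulk RNA, fewer cells of a type and less RNA per cell cannot be told apart.

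The promoter of Icam1 is shown because Icam1 rose in each of the TNF-α comparisons below and its window holds sequences of the kind that NF-κB binds. Cd47, a gene that also rose in the averaged comparison, is shown for contrast. Both are the 250 bases before the annotated start in RefSeq (build GRCm38.p6), 5′ to 3′ on the gene's strand: Icam1 at chr9:21015690-21015939, plus strand, and Cd47, the first of its 2 listed windows, at chr16:49855404-49855653, plus strand. Capitals mark matches to GGNNNTTCC on either strand.
Icam1: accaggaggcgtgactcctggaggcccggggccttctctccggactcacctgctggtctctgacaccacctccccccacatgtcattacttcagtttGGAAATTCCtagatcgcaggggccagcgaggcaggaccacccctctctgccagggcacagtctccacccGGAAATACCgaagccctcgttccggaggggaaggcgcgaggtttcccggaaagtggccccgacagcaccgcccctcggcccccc
Cd47: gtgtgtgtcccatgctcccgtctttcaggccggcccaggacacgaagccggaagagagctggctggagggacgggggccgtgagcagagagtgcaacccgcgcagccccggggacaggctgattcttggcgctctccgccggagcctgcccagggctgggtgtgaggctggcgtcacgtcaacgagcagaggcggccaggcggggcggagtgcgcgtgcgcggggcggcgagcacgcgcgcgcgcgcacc
The Icam1 window holds GGAAATTCC at bases -153 to -145 from the start, which matches on both strands, and GGTATTTCC on the opposite strand at -84 to -76. RefSeq promoter windows were found for 6 of the 8 genes, but not for Vcam1 or Icam2. The letters GGNNNTTCC are not in the windows of Alcam, Mcam, F11r, Cd44 or Cd47. This short pattern is common, being in 15.7% of all 32851 windows of that length and in 17.6% of the 27025 genes with a window. The longer NF-κB consensus, in 3.90% of windows, is in none of the 6 genes' windows. A match is a description of the letters and not a measured binding site.

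Transcripts of Vcam1 and Icam1, inducible integrin ligands, rose with TNF-α whether or not TMAO was present. Against control, 2 of the 8 genes were called higher with TNF-α alone by edgeR at an adjusted p under 0.05, while 2.38% of the 15613 genes tested were called higher. With the combined treatment 2 of 8 were called higher against control (2.01% of all genes) and 2 of 8 against TMAO (2.16% of all genes). These were Vcam1 and Icam1 each time. The first 2 comparisons share the control libraries, the last 2 share the combined libraries, and all come from the same fit. All 8 genes passed the filter on low counts. The median log2 fold change of the 8 genes was 0.37 with TNF-α alone, where the median of all genes was 0.016. Unadjusted p-values fell under 0.05 for 5 of the 8 genes with TNF-α alone (15.2% of all genes), 4 with the combined treatment against control (13.5%) and 3 against TMAO (13.8%).

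**Figure D1:**
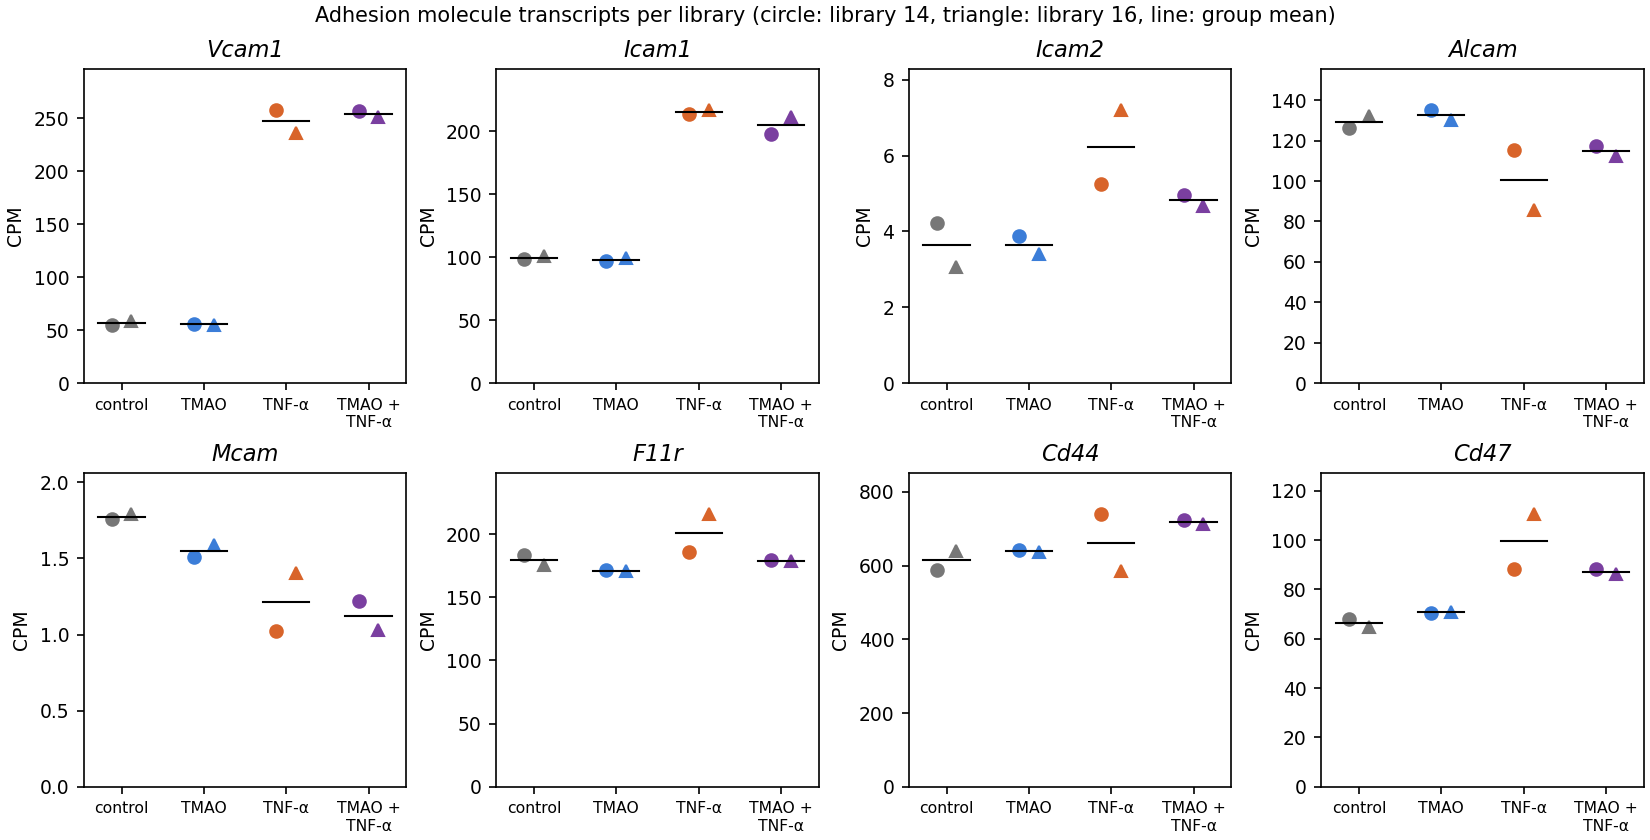
CPM (vertical axes, from 0) of each of the 8 genes by group; circles are libraries 14, triangles libraries 16 and lines group means. Vcam1 and Icam1 show the 4 libraries with TNF-α at 198 CPM or more and the 4 without at or below 101 CPM, while in TNF-α library 16 Alcam, F11r, Cd44 and Cd47 lie away from TNF-α library 14.

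Vcam1 (ENSMUSG00000027962.14), the ligand of the integrin made of Itga4 and Itgb1, stood at 54.7 and 58.7 CPM in the control libraries and at 55.7 and 54.9 CPM in the TMAO libraries. It reached 258 and 236 CPM with TNF-α and 256 and 251 CPM with the combined treatment, from 5717 to 7784 counts per library. The 4 libraries with TNF-α lay far above the 4 without, and within each set the libraries with TMAO lay beside those without it. The log2 fold change was 2.12 ± 0.10 (SE, n = 2 per group, adjusted p = 0.000385 by edgeR) for TNF-α against control, or 4.35-fold with a 95% interval of 3.68 to 5.16. It was 2.16 ± 0.10 (adjusted p = 0.00038) for the combined treatment against control and 2.20 ± 0.10 (adjusted p = 0.000392) against TMAO. By its p-value Vcam1 was gene 6 of 15613 for TNF-α against control and gene 5 for TNF-α averaged over the groups with and without TMAO. Without TNF-α library 16 the change against control was 2.18 (adjusted p = 2.98e-11). In a fit to the control and TNF-α libraries alone, 2.12 had an adjusted p of 0.0724.

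Icam1 (ENSMUSG00000037405.8), the ligand of the integrins LFA-1 and Mac-1, had 98.2 and 101 CPM in the control libraries and 96.6 and 99.4 CPM with TMAO. With TNF-α it had 214 and 217 CPM, and with the combined treatment 198 and 212 CPM. Again the libraries with and without TNF-α did not overlap, with a smaller step than that of Vcam1. The fold was 2.16 (95% interval 1.85 to 2.53; log2 fold change 1.11 ± 0.10, adjusted p = 0.00196 by edgeR) for TNF-α against control. The combined treatment gave 1.04 ± 0.10 on the log2 scale against control (adjusted p = 0.00236) and 1.06 ± 0.10 against TMAO (adjusted p = 0.0022). Without TNF-α library 16 the Icam1 change against control was 1.10 (adjusted p = 2.99e-08). Icam1 missed the threshold for TNF-α against control without control library 14 (adjusted p = 0.0507), at a change of 1.09, and in the fit of those 2 groups alone (adjusted p = 0.109). It also missed it for the combined treatment against control without control library 14 (0.0611) or 16 (0.0525), and against TMAO without TMAO library 14 (0.0628) or 16 (0.0563), these being adjusted p-values. The log2 fold change of Icam1 kept its sign and was at most 1.14 in all leave-outs of these 3 comparisons.

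The ratio of Vcam1 to Icam1 CPM was 0.553 to 0.582 in the 4 libraries without TNF-α and 1.09 to 1.29 in the 4 with it. The mean log2 ratio was 1.07 higher with TNF-α, or 2.10-fold. This ratio was chosen after the values were seen and is a description with no test. CPM does not correct for gene length, so the ratio compares libraries and not the levels of the 2 genes.

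Icam2 (ENSMUSG00000001029.15), a ligand of LFA-1 typical of endothelium and platelets, was scarce, with 89 to 125 counts in the control libraries. It had 4.22 and 3.07 CPM in control, 3.89 and 3.41 with TMAO, 5.26 and 7.20 with TNF-α, and 4.96 and 4.68 with the combined treatment. All libraries with TNF-α lay above all without, with TNF-α library 16 the highest. The change with TNF-α against control was 0.77 ± 0.23 on the log2 scale (adjusted p = 0.154 by edgeR) and 0.40 ± 0.23 with the combined treatment (adjusted p = 0.582), so neither passed. The sum of the endothelial markers given above was also slightly higher with TNF-α. Single markers went both ways with TNF-α averaged over TMAO, and none of these was called by edgeR. Pecam1 was at -0.47 (adjusted p = 0.547), Cdh5 at 1.32 (0.131) and Stab2 at 0.61 (0.447). The part of these markers in the Icam2 values was not tested.

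To use all 8 libraries, the TNF-α effect was averaged over the groups with and without TMAO. Here 3 of the 8 genes were called higher, Vcam1 (2.16 ± 0.07), Icam1 (1.09 ± 0.07) and Cd47 (0.44 ± 0.09, all log2 ± SE), against 5.35% of all genes, and 0 of 8 lower, against 3.86% of all genes. At an unadjusted p under 0.05 there were 6 of 8, and 20.4% of all genes. The median change of the 8 genes was 0.29 and that of all genes 0.003. Without TNF-α library 16, 5 of 8 were higher (12.2% of all genes) and 2 of 8 lower (12.8%). The 5 were Vcam1 (2.19), Icam1 (1.08), Icam2 (0.46, adjusted p = 0.0227), Cd44 (0.22, adjusted p = 0.00207) and Cd47 (0.36, adjusted p = 2.91e-05). The 2 were Alcam (-0.19, adjusted p = 0.00664) and Mcam (-0.63, adjusted p = 0.0488).

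**Figure D2:**
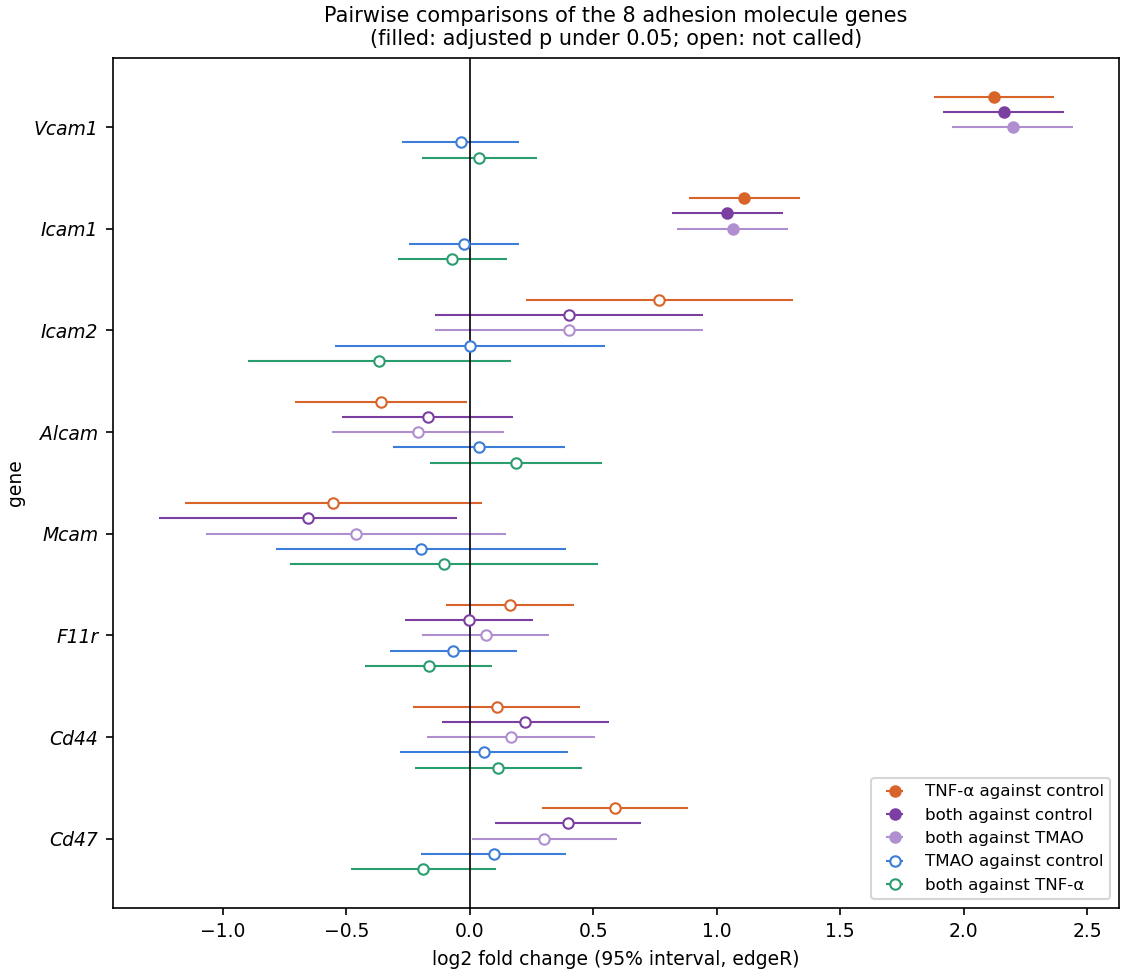
Log2 fold change (horizontal axis) with its 95% interval from edgeR for each of the 8 genes in 5 pairwise comparisons; filled points have an adjusted p under 0.05 and open points do not. Filled points are seen for Vcam1 near 2.1 to 2.2 and for Icam1 near 1.0 to 1.1, and the 2 TMAO comparisons lie around 0.

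Cd47 (ENSMUSG00000055447.19), the ligand of Sirpa and a receptor of thrombospondin, had 67.8 and 64.6 CPM in control, 70.6 and 70.9 with TMAO, 88.3 and 111 with TNF-α, and 88.1 and 86.3 with the combined treatment. The groups with and without TNF-α did not overlap, and TNF-α library 16 was again the highest. The averaged change was 0.44 ± 0.09, or 1.36-fold (95% interval 1.18 to 1.57, adjusted p = 0.023 by edgeR). In single comparisons Cd47 was not called, at 0.59 ± 0.12 for TNF-α against control (adjusted p = 0.0524) and 0.40 ± 0.12 for the combined treatment against control (adjusted p = 0.182). For TNF-α against control 6 of 12 alternatives called Cd47 higher, with adjusted p-values down to 0.0046 by DESeq2 and up to 0.433. These 12 left out no library of the compared groups, and they include the fit of those groups alone. The averaged call rested on the full set: without control library 14 or 16, TMAO library 14 or 16, or combined library 14 or 16 the adjusted p was 0.0883 to 0.115, at changes of 0.44 to 0.47. It held without TNF-α library 14 (0.52) or 16 (0.36). In TPM the control value of Cd47 was uneven, 29.4 and 39.7 TPM from 2006 and 1873 counts.

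Alcam (ENSMUSG00000022636.13), which binds Cd6 and itself, lay lower with TNF-α but was not called with all libraries. It had 126 and 132 CPM in control, 135 and 130 with TMAO, 116 and 85.8 with TNF-α, and 117 and 112 with the combined treatment. All 4 libraries with TNF-α lay below all 4 without, and TNF-α library 16 was the lowest by far. The averaged change was -0.28 ± 0.10 (adjusted p = 0.172 by edgeR).

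Mcam (ENSMUSG00000032135.15) had the lowest level of the 8, with 29 to 52 counts per library. Its values were 1.76 and 1.79 CPM in control, 1.51 and 1.59 with TMAO, 1.03 and 1.41 with TNF-α, and 1.22 and 1.03 with the combined treatment. The libraries with TNF-α were all lower, with an averaged change of -0.51 ± 0.18 (adjusted p = 0.162 by edgeR). So 4 of the 8 genes lay higher in every library with TNF-α (Vcam1, Icam1, Icam2 and Cd47), where 9.81% of all genes did, and 2 lay lower in every one (Alcam and Mcam), where 10.2% did.

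F11r (ENSMUSG00000038235.4), an LFA-1 ligand that also binds itself between neighbouring cells, was not called in any comparison with all libraries. It had 183 and 175 CPM in control, 172 and 170 with TMAO, 186 and 216 with TNF-α, and 179 and 179 with the combined treatment. The groups overlapped, and the averaged change of 0.11 ± 0.08 (95% interval -0.07 to 0.30, adjusted p = 0.518 by edgeR) did not pass.

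Cd44 (ENSMUSG00000005087.17), the hyaluronan receptor, was the most abundant of the 8. It had 589 and 640 CPM in control, 642 and 637 with TMAO, 740 and 585 with TNF-α, and 723 and 713 with the combined treatment. TNF-α library 14 and both combined libraries were the highest of all 8, and TNF-α library 16 was the lowest, so the groups overlapped. The averaged change was 0.14 ± 0.10 (95% interval -0.10 to 0.38, adjusted p = 0.562 by edgeR), and 0.22 without that library, as given above. On the TPM scale its sign turned: limma on log2(TPM + 1) gave -0.19 for Cd44 averaged (adjusted p = 0.673) and -0.32 for TNF-α against control (adjusted p = 0.64), neither of them called. Its change against control was also -0.08 without TNF-α library 14 (adjusted p = 0.355), so no direction can be given for Cd44.

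TMAO changed none of the 8 genes detectably. Against control 0 of 8 were called by edgeR (0.0% of all genes), 0 of 8 at an unadjusted p under 0.05, and 0 of 8 by DESeq2. Over all genes 184 had an unadjusted p under 0.05 and DESeq2 called 4. The log2 fold changes ran from -0.20 (Mcam, 95% interval -0.78 to 0.39) to 0.10 (Cd47, -0.20 to 0.39). For Vcam1 it was -0.04 (-0.27 to 0.20) and for Icam1 -0.02 (-0.25 to 0.20). In the presence of TNF-α, the combined treatment against TNF-α alone also gave 0 of 8 calls (0.0% of all genes), 0 of 8 at an unadjusted p under 0.05 and 0 of 8 by DESeq2, with 549 genes at an unadjusted p under 0.05 and 0 called by DESeq2 over all genes. Vcam1 stood at 0.04 (-0.20 to 0.27) and Icam1 at -0.07 (-0.29 to 0.15). The interaction, which asks whether TMAO altered the TNF-α response, called 0 of 8 (0.0% of all genes), with 0 of 8 and 184 of all genes at an unadjusted p under 0.05, and 0 by DESeq2. It was 0.07 ± 0.14 for Vcam1 and -0.05 ± 0.13 for Icam1, with 95% intervals of -0.26 to 0.41 and -0.36 to 0.27, each an adjusted p of 0.953 or 0.956. These counts depended on TNF-α library 14: without it 5 of the 8 genes were called for the combined treatment against TNF-α, where 49.4% of all genes were, and 3 for the interaction, where 35.5% were, so the shares of the 8 genes lay near those of all genes. Without library 16 none of the 8 was called in either.

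Levels between genes were compared in TPM, which is scaled by transcript length. In control Cd44 led with 404 ± 51.7 TPM (mean ± SD, n = 2), followed by F11r with 153 ± 0.390, Icam1 with 99.8 ± 3.15 and Alcam with 49.4 ± 6.83. Vcam1 at 37.6 ± 4.13 and Cd47 at 34.5 ± 7.32 overlapped, and Icam2 at 5.91 ± 1.60 and Mcam at 1.42 ± 0.310 were the lowest. The 8 genes thus spanned more than 2 orders of magnitude. TMAO kept this order except that Cd47 (44.7 ± 0.964) came before Vcam1 (36.9 ± 0.518).

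With TNF-α the order at the top changed. Cd44 had 327 ± 80.8 TPM, Icam1 213 ± 16.3, F11r 158 ± 7.54 and Vcam1 148 ± 40.6, of which F11r and Vcam1 overlapped. Below them came Cd47 (58.1 ± 2.31), Alcam (36.7 ± 15.5), Icam2 (7.60 ± 1.65) and Mcam (0.748 ± 0.0603). In the combined group the order was Cd44 (427 ± 93.3), Icam1 (213 ± 9.61), Vcam1 (176 ± 0.162), F11r (157 ± 2.15), Cd47 (57.4 ± 3.34), Alcam (48.0 ± 1.36), Icam2 (6.91 ± 0.729) and Mcam (1.30 ± 0.0292), with no overlap of neighbours. Vcam1 made up 4.46% to 4.86% of the summed TPM of the 8 genes in the libraries without TNF-α and 14.2% to 17.0% in those with it. The share of Cd44 was 50.0% to 53.4% without and 32.2% to 43.1% with TNF-α. The summed TPM itself was 735 to 836 without and 838 to 1144 with TNF-α, so the share gives no direction for Cd44.

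**Figure D3:**
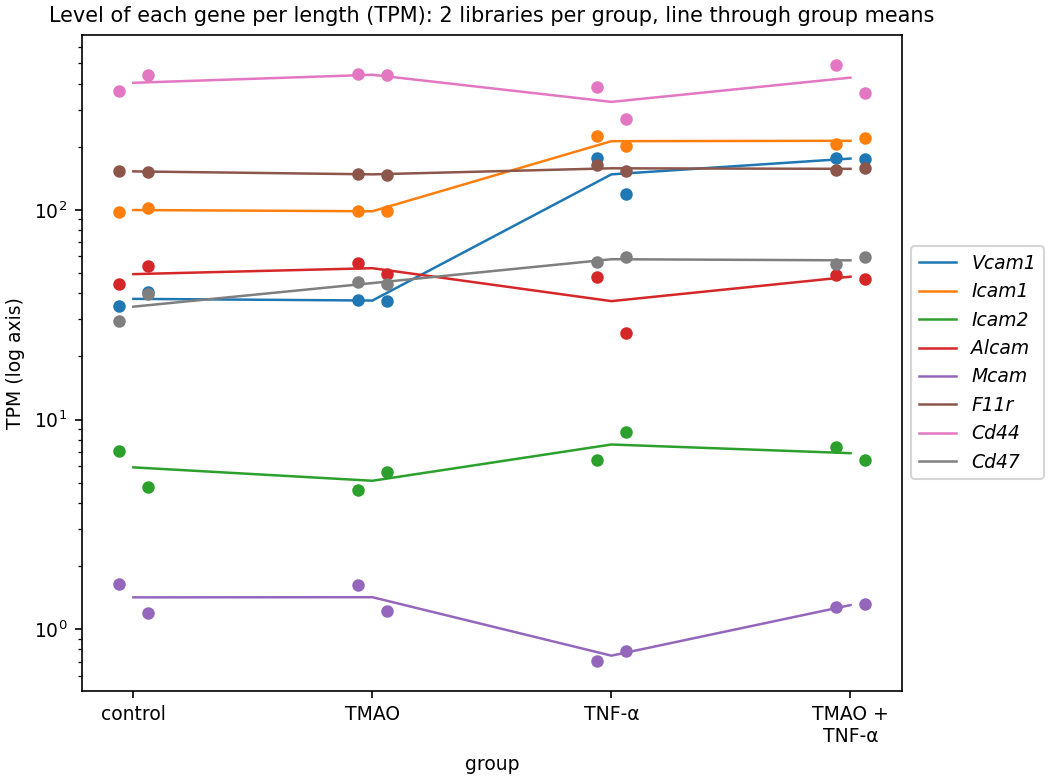
TPM on a log axis for each of the 8 genes by group; points are libraries (14 on the left, 16 on the right) and lines join group means. Vcam1 climbs from about the level of Cd47 to that of F11r, Icam1 passes F11r, and Cd44 stays on top with widely spaced libraries in the TNF-α and combined groups.

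The deposited TPM and counts did not move in step for some of these genes. Combined libraries 14 and 16 had 20131 and 20093 Cd44 counts but 493 and 361 TPM. Vcam1 in TNF-α library 16 was 119 TPM where TNF-α library 14 had 176, a wider gap than the 236 and 258 CPM. TPM divided by CPM ranged 1.13-fold across libraries for Icam1, 1.39-fold for Vcam1, 1.60-fold for Cd47 and 2.29-fold for Mcam, and the lowest value was in TNF-α library 16 for Vcam1, Icam1, Alcam, Mcam, F11r and Cd44. How the transcripts were assigned for TPM was not tested. In TPM the libraries with and without TNF-α were apart for Vcam1, Icam1 and Cd47, and overlapped for Icam2, Alcam and Mcam.

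The genes whose log2 CPM followed each molecule best over the 8 libraries were found among 11060 genes with a mean of at least 1 CPM, by Pearson's r and as a description, since the points share libraries and the TNF-α split. For Vcam1 they were Mmp13 (r = 0.999), a collagenase, Spsb1 (0.999) and Rgs5 (0.998). For Icam1 they were Stx11 (0.999), Pdgfrl (0.998) and Tnfaip2 (0.997), a TNF-α-induced gene. Cd47 was followed by Htra1 (0.993), a secreted protease, Ifrd1 (0.989) and Sdcbp2 (0.987). F11r was followed by Usf1 (0.996), Gsn (0.995) and Borcs6 (0.994), Cd44 by Kpna3 (0.994), Itpripl2 (0.988) and Bclaf3 (0.987), and Icam2 by Slc39a13 (0.995), Adamtsl5 (0.992) and Otud5 (0.990). Alcam was followed by Hdlbp (0.998), Arcn1 (0.998) and Supt20 (0.997), and Mcam by Sdcbp (0.991), Bet1 (0.981) and Rab1a (0.979). The 3 genes nearest to each of Vcam1, Icam1 and Cd47 were themselves called higher in the averaged comparison, and those nearest to the other 5 were not called. They were picked over the same 8 libraries as that comparison, so these calls largely follow from the choice and add no support. Each r also covers TNF-α library 16, which stood apart. F11r had 216 CPM in it and 170 to 186 CPM in the other libraries, and Alcam 85.8 CPM against 112 to 135 CPM. How r changes without that library was not tested.

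Around the 8 molecules, lists of their receptors, ligands, processing enzymes and relatives were read from the same averaged TNF-α fit. Over all genes in that fit 5.35% were called higher, 3.86% lower, and 20.4% had an unadjusted p under 0.05. NF-κB feedback genes, a textbook readout of TNF-α signalling, were called higher in 11 of 12, with a median log2 fold change of 1.10. Among them were Ccl2 (2.57 ± 0.12), Traf1 (2.72 ± 0.13), Tnfaip3 (1.72 ± 0.09) and Nfkbia (1.66 ± 0.10).

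Other surface molecules that bind leukocytes or neighbouring cells moved in both directions (median -0.09). Among the 27 of 38 that passed the filter, 6 were called higher (5.35% of all genes) and 4 lower (3.86% of all genes). Madcam1, the mucosal ligand of the integrin made of Itga4 and Itgb7, rose from 13.4 to 16.6 CPM without TNF-α to 71.5 to 114 CPM with it (2.55 ± 0.13, adjusted p = 0.000104 by edgeR), a larger log2 change than that of Vcam1 in this fit. P-selectin, Selp, rose from 0.310 to 0.666 CPM to 1.90 to 2.38 CPM (2.12 ± 0.20, adjusted p = 0.000972). The scavenger receptor Stab1 rose by 1.27 ± 0.09 (adjusted p = 0.000333) and the poliovirus receptor Pvr by 0.53 ± 0.07 (adjusted p = 0.00377), both on the log2 scale. Named after their values were seen, Nectin2 (0.62) and the checkpoint ligand Cd274 (0.60) were higher, and Epcam (-1.19), Cadm1 (-0.63), Nectin3 (-0.53) and Cd99l2 (-0.33) lower. Leaving out any 1 library kept the calls of Madcam1, Stab1, Selp, Pvr and Epcam, whereas the other 5 lost theirs without at least 5 of the libraries in turn, with adjusted p-values up to 0.174. E-selectin, Sele, had 33 counts over the 8 libraries, Icam5 had 28 and Icam4 had 0.

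Of 15 receptors for the 8 molecules, 6 passed the filter and 1 was called higher, where 5.35% of all genes were. Itgb3, an integrin chain that pairs with Itgav, rose from 31.7 to 36.6 CPM without TNF-α to 60.5 to 80.0 CPM with it (1.11 ± 0.11, adjusted p = 0.00123 by edgeR). Itgav was at 0.71 ± 0.20 (adjusted p = 0.0789), Itga4, the Vcam1 receptor chain, at 0.28 ± 0.20 (0.548) and Itgb7 at -0.56 ± 0.42 (0.576), none of which passed. Leukocyte receptor genes below the filter were at or near 0: Itgal had 38 counts over the 8 libraries, Itgam 33 and Cd6 8, while Itgax and Sirpa had 0. Itga4, which passed, had 1.55 to 2.45 CPM without TNF-α and 1.98 to 2.85 CPM with it. Its partner Itgb1 was abundant, at 775 to 823 CPM without and 662 to 780 CPM with TNF-α (-0.10 ± 0.09, adjusted p = 0.641 by edgeR).

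Among ligands and hyaluronan partners of Cd44 and Cd47, 16 of 21 passed the filter (median -0.27). Of these 1 was higher (5.35% of all genes) and 4 were lower (3.86% of all genes). Itih2, which supplies heavy chains to hyaluronan, fell from 571 to 583 CPM to 206 to 230 CPM (-1.36 ± 0.08, adjusted p = 0.000166 by edgeR). Cd74, a partner of Cd44 and the invariant chain of MHC class II, rose by 2.07 ± 0.24 (adjusted p = 0.00282 by edgeR). Thrombospondin, Thbs1, a ligand of Cd47, was at -1.24 ± 0.22 (adjusted p = 0.0135 by edgeR). The hyaluronan-degrading Cemip was scarce, at 0.596 to 1.09 CPM without TNF-α and 0.0827 to 0.364 CPM with it, reaching below 3 counts. It was at -2.05 ± 0.43 (0.0301), and the Cd44 ligand Spp1 was at -0.44 ± 0.10 (0.0378). These last 3 calls were lost without any 1 of the 6 libraries outside the TNF-α group, with adjusted p-values of up to 0.0848, 0.145 and 0.182.

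**Figure D4:**
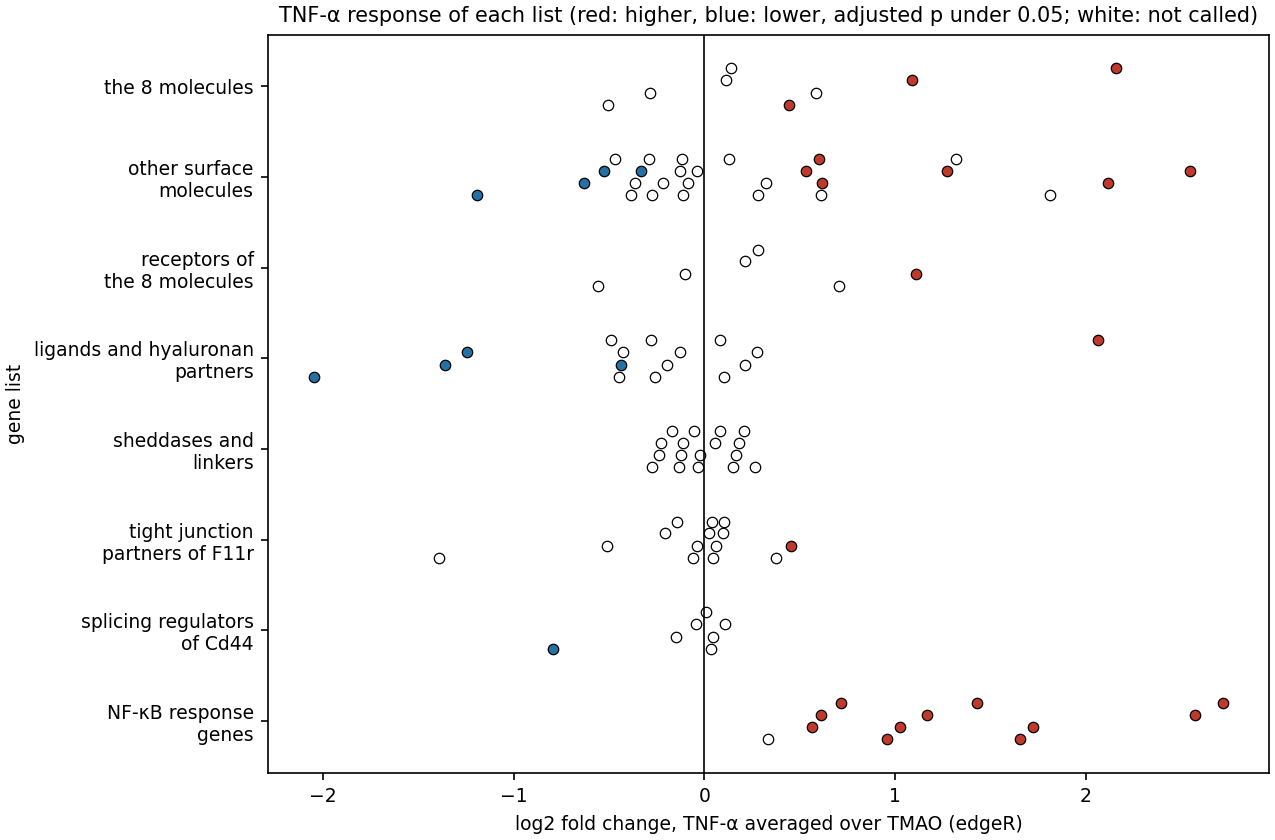
Log2 fold change with TNF-α averaged over TMAO (horizontal axis, edgeR) for every gene that passed the filter in each list, 1 point per gene, spread vertically for legibility; red points were called higher, blue points lower and white points not called. NF-κB genes lie to the right (11 of 12 red), sheddases and linkers lie near 0 (0 of 17 coloured), and the 8 molecules have 3 red points.

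Sheddases and cytoskeletal linkers, which cut the surface molecules off or tie them to actin, held 0 calls of 17 by edgeR and 1 by DESeq2. At an unadjusted p under 0.05 there were 3 of 17, and 20.4% of all genes. Their smallest p-values belonged to Ezr (-0.24 ± 0.07, adjusted p = 0.0765), Rhbdf1 (0.21 ± 0.07, 0.138), Rdx (-0.28 ± 0.10, 0.189) and Mmp14 (-0.12 ± 0.06, 0.364). Of tight junction partners of F11r, 1 of 14 was higher, where 5.35% of all genes were. This was Cldn1 (0.45 ± 0.11, adjusted p = 0.0449 by edgeR). Its call was lost without any 1 of the 6 libraries outside the TNF-α group. Cldn2 (-0.51 ± 0.16, 0.113), Ocln (-1.39 ± 0.45, 0.127) and Rapgef2 (0.38 ± 0.21, 0.408) did not pass. Of 7 splicing and RNA-binding regulators of Cd44, 1 was lower, where 3.86% of all genes were. Esrp2, an epithelial splicing factor, fell from 32.4 to 33.7 CPM to 16.3 to 20.9 CPM (-0.79 ± 0.09, adjusted p = 0.00285 by edgeR). Its paralog Esrp1 had 2 counts in all. Khdrbs1 (0.11 ± 0.07, 0.461), Srsf1 (-0.15 ± 0.12, 0.613) and Hnrnpa1 (0.04 ± 0.09, 0.856) did not pass.

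For 3 of the 8 genes, reads in exon bases shared with antisense genes could have been given to the wrong gene or left out. No source used here states the strand setting of the counting. Exons of Icam1 share 511 bases with Gm47079, those of Vcam1 61 bases with Gm43109 and those of Mcam 17 bases with Gm10687. These antisense genes were listed with 0 to 1, 0 to 2 and 0 to 1 counts per library.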

How the data were processed

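Bulk mRNA of 8 Hepa1-6 libraries was analysed. Per the labels, libraries were made from oligo-bead mRNA and read as pairs of 150 bases; per the submitters' processing notes the build was mm9. Aligner, annotation and strandedness were not given in the sources used here. Whole-number counts per Ensembl gene, in a table named for htseq, and TPM per symbol were deposited by the authors. Identifiers (54409 of 54446) were matched to GENCODE M21, and 95 repeated TPM symbols were left out.

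Counts of the 15613 genes passing filterByExpr were fitted with edgeR 4.0.16 in R 4.3.3 (TMM, 4 group means, 4 residual degrees of freedom, robust quasi-likelihood, Benjamini-Hochberg at 0.05). CPM used kept totals times TMM factors, and log2 CPM a prior count of 2. Intervals and the limit of 3 counts cover the fit and counting error only. Scripts were tested on simulated data. Limma 3.58.1, DESeq2 1.42.0 and the other alternatives are in the closing section.

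The 8 genes and the lists were chosen with earlier results of these data known. Named genes were the 8, the 4 smallest p of each list in the averaged comparison with every called gene of a list that had 8 or fewer, and the 3 best-correlated named genes. List genes below the filter, the 6 surface molecules so marked, and the values of Pecam1, Cdh5, Stab2 and Itgb1 were added after the values were seen. A protein comparison was not made.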

Additional observations from a re-analysis of the deposited data

Results flagged for a closer look

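Cd47 differed in direction between the TMAO comparisons without and with TNF-α. Without TNF-α both TMAO libraries (70.6 and 70.9 CPM) lay above both controls (67.8 and 64.6 CPM), and with it both combined libraries (88.1 and 86.3 CPM) lay below both TNF-α libraries (88.3 and 111 CPM). The interaction was -0.29 ± 0.18 on the log2 scale with an adjusted p of 0.953 by edgeR, so the difference did not pass the test. It was -0.11 without TNF-α library 16 and -0.41 without TNF-α library 14. The last value rests on TNF-α library 16 alone for that group, which stood apart from the other libraries.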

How the results depend on the processing

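Over 1216 values of the 8 genes under the alternatives, 1138 kept their side of the threshold, 15 lost a call, 63 gained a call, 0 reversed with a call, and 79 differed in sign where neither value was called. With all libraries, Vcam1 and Icam1 kept their calls in the 3 TNF-α comparisons by DESeq2, limma-voom, other scalings, other filters and limma on log2(TPM + 1) or log2(TPM + 0.1). The fit to only the groups compared, with 2 residual degrees of freedom fewer, called 0 of the 8 for TNF-α against control. Over all genes it called 1. For the combined treatment against TMAO it called 7 of the 8, and 4775 over all genes. In the leave-outs that follow, calls over all genes also moved widely, as given in the next paragraph. Leaving out each library gave 1 to 6 called genes for TNF-α against control (1 without control 14, 6 without TNF-α 14, 4 without TNF-α 16) and 1 to 5 for the combined treatment against control (1 without control 14 or 16, 4 without TNF-α 14, 5 without TNF-α 16). It gave 1 to 5 against TMAO (1 without TMAO 14 or 16, 5 without TNF-α 14, 4 without TNF-α 16), 0 to 5 for the combined treatment against TNF-α, 2 to 7 averaged (6 without TNF-α 14, 7 without TNF-α 16) and 0 to 3 for the interaction. Without TNF-α 16 and control 14, chosen after seeing the data, 6, 6, 7 and 7 were called in TNF-α against control, combined against control, combined against TMAO, and averaged, while the calls over all genes rose to 3273, 3703, 4832 and 5526. Ordering by counts per kilobase in place of TPM kept the rank of 4 of the 8 genes in the mean of all libraries, with Icam1 and F11r, and Cd47 and Alcam, changing places. Cd47 averaged was 0.55 (adjusted p = 0.0906) with limma on log2(TPM + 1) and no filter.

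Over all genes, TNF-α against control had 633 calls, against 960 by DESeq2, 954 with no filter, 241, 210 and 144 by limma on TPM, 342 with a replicate block, 1 in the fit of those groups alone, 7971 without TNF-α 14, 2113 without TNF-α 16, 92 to 98 without a control library and 256 to 270 without a TMAO or combined library. The averaged comparison had 1437, against 796, 757 and 605 on TPM, 7444 without TNF-α 14, 4102 without TNF-α 16 and 647 to 716 without another library. Combined against control (545) ranged from 90 to 3013 and combined against TMAO (569) from 71 to 2628 over the leave-outs, and they reached 2373 and 4775 in the fits of those groups alone.

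No difference between libraries 14 and 16 was shared by the groups: correlations of the 14 minus 16 differences between groups were -0.42 to 0.00004. The value of -0.42 was that of control with TNF-α, which includes TNF-α 16. Whether the numbers pair the libraries cannot be told from this, since pairs without a shared shift would look alike. With the replicate block 2 of the 8 genes were called in each of the 3 pairwise TNF-α comparisons and in the averaged one, and 0 in the other 3 comparisons, and Cd47 averaged was 0.44 (adjusted p = 0.0569). With TNF-α numbers swapped, chosen after seeing the data, the block called 4 averaged.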
